A study of Mus musculus with 3 samples.

Results

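Collagen genes were followed through the supporting cells of the busulfan-treated mouse testis. The members are all genes whose symbol has the form of a collagen chain (Col, a type number, a and a chain number) with at least 50 unique molecular identifiers (UMIs, each a captured transcript) summed over 3 single-cell libraries. The rule found 42 of the 44 genes of that form, among 55450 genes in the files. Just inside the limit lay Col24a1 with 59 UMIs and Col8a2 with 102, and outside it lay Col9a2 with 6 and Col10a1 with 5.

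The study asked how blood exosomes of different sources act on the testis of mice made azoospermic. All 3 groups received busulfan, an alkylating drug that depletes germ cells. The PBS group was injected with buffer, the EXO group with exosomes from the blood of wild-type mice, and the dEXO group with exosomes from the blood of mice with an imbalanced gut microbiota. Each group is 1 library of testis cells made with droplet 3′ chemistry. Strain, age, dose and how many animals went into a library are not given in the sources used here, and the labels' protocol text speaks of aorta where the tissue label says testis. Cells with germ cell, Sertoli and Leydig markers were present in each library. With 1 library per group, no test between groups was possible, and every interval below is an exact 95% interval that covers counting error only. A ratio past 1.5-fold is called higher or lower on its point value, where a gene had at least 50 UMIs over both libraries and the class at least 50 cells in each.

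The PBS, EXO and dEXO libraries held 97253862, 91787154 and 96655663 UMIs over 5514, 10228 and 9760 barcodes. After filters and doublet removal 5049, 9084 and 8454 cells were used, with median depths of 7877, 3172 and 2939 UMIs, so that depth differed between libraries wherever they are compared. Pairs of libraries shared between 13 and 17 barcodes. Stromal-like cells, which resemble fibroblasts of the interstitium, numbered 2051, 4419 and 3214, and Leydig-like cells, the androgen producers, 2021, 2394 and 1973. Sertoli-like cells, which nurse the germ cells, numbered 71, 191 and 476. Peritubular myoid-like cells, the contractile sheath of the tubules, came to 34 cells in all, and endothelial-like cells to 38. No cluster of mural cells, the pericytes and smooth muscle of vessels, was found. In stromal-like cells Acta2, smooth muscle actin, stood at 17.1 CPM (UMIs of the gene per 1000000 UMIs of the class) and Myh11, smooth muscle myosin, at 5.94 CPM, against 8229 and 5671 CPM in the myoid-like cells.

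Collagens are built from 3 chains wound into a triple helix. Fibrillar collagens such as types I, III and V assemble into the banded fibres of the interstitium, whereas type IV forms the sheet-like network of basement membranes. Type VI makes beaded filaments near cells, FACIT collagens sit on the surface of fibrils, multiplexins (types XV and XVIII) bind basement membranes, and a few collagens span the cell membrane. In the testis, basement membranes surround the seminiferous tubules and vessels, and fibrillar collagen fills the wall of the tubule and the interstitium.

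The type IV genes lie in head-to-head pairs in the mouse genome. In the GENCODE annotation of GRCm38 the starts of Col4a1 and Col4a2 lie 21 bases apart on chromosome 8, those of Col4a3 and Col4a4 72 bases apart on chromosome 1, and those of Col4a5 and Col4a6 1309 bases apart on chromosome X. The sequence between the starts of Col4a3 and Col4a4 is shown because both genes were high in the same cells. It lies at chr1:82586850-82586920 of GRCm38.p6, is given on the minus strand, on which Col4a4 is read, and overlaps no annotated exon. Of its 71 bases 69.0% are G or C, and it holds none of the motifs named next.

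Col4a3 and Col4a4: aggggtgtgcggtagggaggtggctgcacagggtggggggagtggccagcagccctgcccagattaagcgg

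RefSeq's promoter table of GRCm38.p6 held 33 of the 42 members. In the 250 bases before each start, 3 short motifs were searched on both strands: the CCAAT box (CCAAT), the TATA box (TATAAA) and the GC box (GGGCGG). Among 36 collagen windows 21 (58.3%) held GGGCGG, against 32.7% of all 32851 windows. CCAAT was in 13 (36.1%), against 33.8%, and TATAAA in 4 (11.1%), against 12.4%. A match is a description of letters and no evidence of binding. Windows of 3 genes are shown because their levels carry results below: Col3a1 for the fibrillar collagens of stroma, Col6a5 for a chain found mainly in the stromal-like cluster c2, and Col11a1 for a chain found mainly in Leydig-like cells. Capitals mark motif matches: TATAAA 117 bases before the Col3a1 start (chr1:45311288-45311537, plus strand), GGGCGG 57 bases before the Col6a5 start (chr9:105960644-105960893, minus strand), and in Col11a1 (chr3:114030290-114030539, plus strand) GGGCGG at 110 and 19 bases and the reverse of CCAAT at 79 bases. G and C make up 35.2% of the Col3a1 window, 58.8% of that of Col6a5 and 62.4% of that of Col11a1, and the median over all promoters is 52.4%.

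Col3a1: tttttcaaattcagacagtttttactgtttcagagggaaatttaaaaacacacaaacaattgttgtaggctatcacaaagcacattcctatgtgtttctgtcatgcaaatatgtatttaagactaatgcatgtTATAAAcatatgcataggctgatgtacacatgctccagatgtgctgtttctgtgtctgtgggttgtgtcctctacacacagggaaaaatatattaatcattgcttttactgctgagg
Col6a5: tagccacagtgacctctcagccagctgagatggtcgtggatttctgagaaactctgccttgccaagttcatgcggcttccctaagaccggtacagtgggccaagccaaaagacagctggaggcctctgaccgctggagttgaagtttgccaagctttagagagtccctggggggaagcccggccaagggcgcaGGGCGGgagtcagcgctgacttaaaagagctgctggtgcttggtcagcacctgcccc
Col11a1: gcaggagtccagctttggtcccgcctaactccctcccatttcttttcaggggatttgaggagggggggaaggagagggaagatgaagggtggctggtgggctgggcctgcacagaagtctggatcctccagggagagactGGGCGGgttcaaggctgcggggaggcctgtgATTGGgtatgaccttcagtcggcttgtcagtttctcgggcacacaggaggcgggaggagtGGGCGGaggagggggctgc

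Collagen transcripts were concentrated in the stromal-like and myoid-like cells. Members made up 0.882%, 1.07% and 0.972% of stromal-like UMIs in PBS, EXO and dEXO, and 1.24%, 1.40% and 1.33% of myoid-like UMIs. Myoid-like shares rest on 12, 10 and 12 cells. Endothelial-like cells gave 0.265% over the libraries together, Leydig-like cells 0.0782%, 0.0880% and 0.0606%, and Sertoli-like cells 0.0378%, 0.0547% and 0.0479%. In PBS the Sertoli-like share was 0.0177% with cells thinned to 1000 UMIs and 0.0214% with cells weighing equally. T or NK cells, which should lack fibrillar collagen and serve here as a measure of free RNA, gave 0.0139%, 0.0161% and 0.0125%. In every library the order was therefore myoid-like, stromal-like, endothelial-like, Leydig-like, Sertoli-like and T or NK cells. The endothelial-like value in PBS rests on 3 cells.

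**Figure D1:**
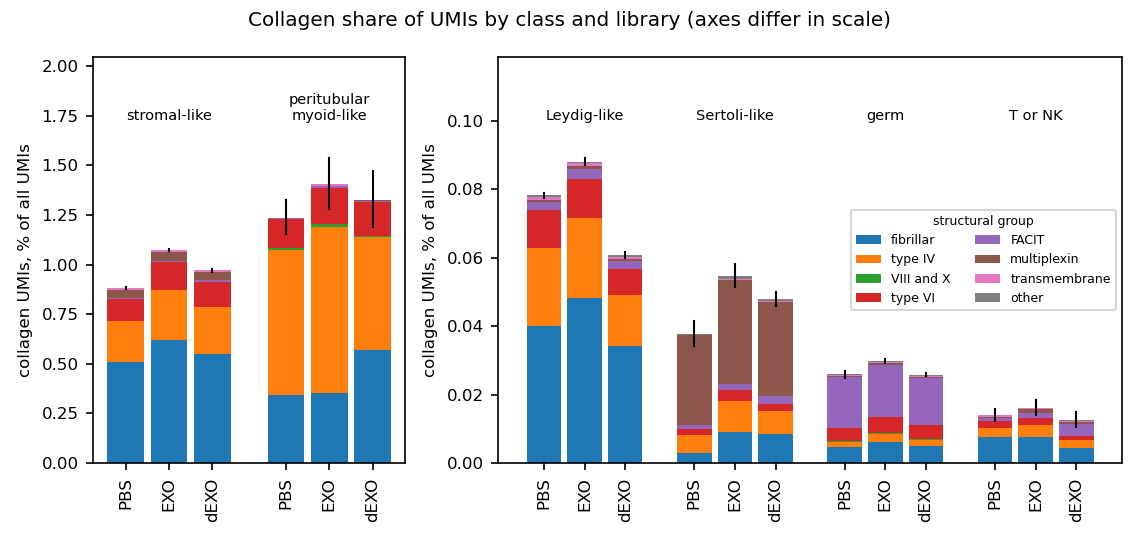
Collagen share of all UMIs (percent, vertical axis) in each class and library, with bars stacked by structural group and black lines for the exact 95% counting interval of the whole share; the panels differ in scale. Stromal-like and myoid-like bars stand near 1%, Leydig-like and Sertoli-like bars below 0.1%.

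The make-up of the collagen share differed between classes. In stromal-like cells fibrillar chains made up 0.511%, 0.620% and 0.551% of UMIs in PBS, EXO and dEXO, type IV 0.205%, 0.2504% and 0.234%, and type VI 0.109%, 0.140% and 0.129%. In myoid-like cells type IV alone made up 0.730%, 0.834% and 0.572%. In Sertoli-like cells multiplexins, nearly all Col18a1, gave 0.0264%, 0.0307% and 0.0275%. Fibrillar chains were thus the largest group in stromal-like cells, and a multiplexin in Sertoli-like cells. In myoid-like cells type IV exceeded the fibrillar chains (0.344% and 0.355%) in PBS and EXO, while in dEXO both stood at about the same share (0.568% fibrillar). Leydig-like cells were also led by fibrillar chains, with 0.0413% against 0.0213% for type IV over the libraries together, and endothelial-like cells by type IV, with 0.160%.

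**Figure D2:**
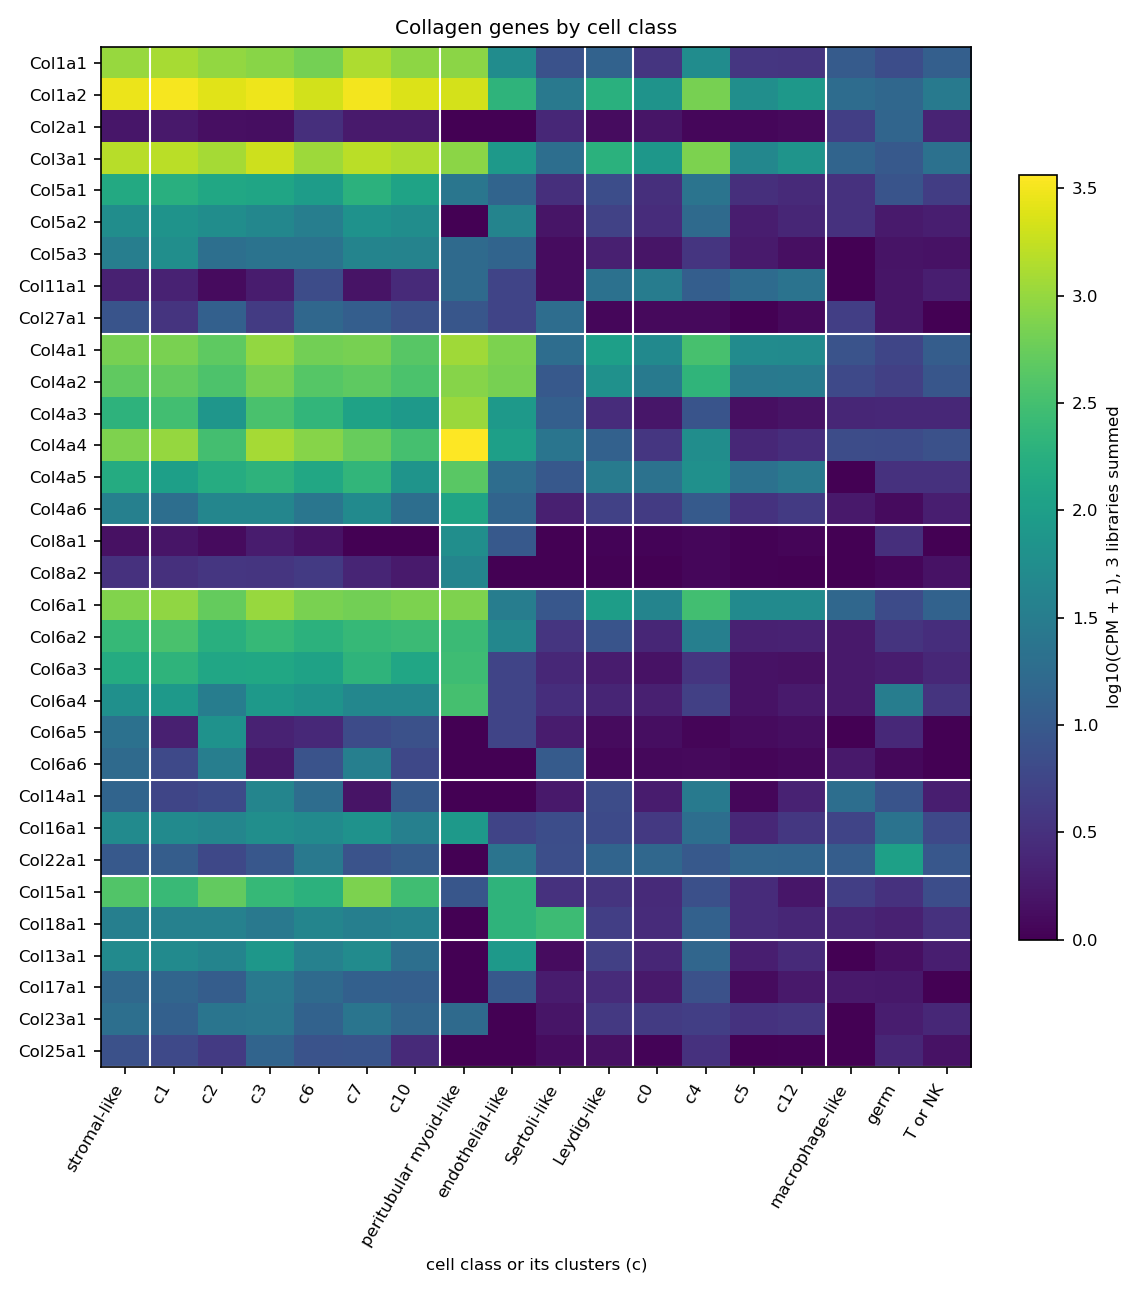
Level of 32 collagen genes (rows, those reaching 10 CPM in some class) as log10(CPM + 1) in each class and cluster (columns), with the 3 libraries summed. Col1a1, Col1a2, Col3a1, Col4a1, Col4a2, Col4a4 and Col6a1 are high in all stromal-like clusters and in myoid-like cells. Col18a1 is high in Sertoli-like and endothelial-like cells, and Col22a1 in germ cells.

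Among fibrillar collagens, Col1a2, which encodes the second chain of type I, was the most abundant member. Its stromal-like level was 2608 CPM [2576, 2640] in PBS, 3069 [3037, 3102] in EXO and 2853 [2813, 2894] in dEXO, against 34.1, 31.8 and 14.9 CPM in T or NK cells. A UMI of Col1a2 was found in 96.1%, 94.4% and 90.9% of stromal-like cells at median depths of 4721, 2294 and 1938.5 UMIs, against 3.33%, 6.202% and 3.13% of T or NK cells at 4031.5, 2411.5 and 2051 UMIs. Since each transcript is counted by its 3′ end, CPM are not divided by length. Col3a1, the sole chain of type III, followed with 1283, 1747 and 1451 CPM, and Col1a1, the main chain of type I, with 996, 1119 and 963 CPM. T or NK cells had 21.9, 23.2 and 13.9 CPM of Col3a1. Type V chains, which enter type I fibrils and limit their width, were lower: Col5a1 stood at 135, 158 and 145 CPM, Col5a2 at 50.5, 59.6 and 56.1, and Col5a3 at 29.99, 37.3 and 29.4. The remaining fibrillar members (Col2a1, Col11a1, Col11a2, Col24a1 and Col27a1) stayed between 0.292 and 7.29 CPM in stromal-like cells with the libraries summed.

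Fibrillar chains were found in all stromal-like clusters, with an order of clusters that differed between chains. Cluster c1 was led by Adgrd1 and Thbd, c2 by Dlk1, c3 by Cxcl14 and Cyp26b1, and c7 by Sned1, Dlk1 and Igf1. Cells of c6 and c10 were shallow: c6 was led by the nuclear RNA Neat1, and c10 by Mustn1 and Mfap5. Over the libraries together Col1a1 measured 1251, 973, 855 and 1314 CPM in c1, c2, c3 and c7, and Col3a1 1573, 1226, 1954 and 1551 CPM. Col5a3 was highest in c1 with 56.9 CPM, against 19.3 in c2, 21.7 in c3 and 39.2 in c7. Collagen shares of c1, c3 and c7 lay between 0.981% and 1.18% in every library, those of c2 between 0.753% and 0.888%, so that c2 was the lowest of these 4 clusters in each library. Clusters were formed without collagen genes among the genes clustered.

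In the type IV group, Col4a1 and Col4a2, the chains of basement membranes throughout the body, stood beside a similarly high Col4a4. Stromal-like Col4a1 measured 636, 719 and 646 CPM in PBS, EXO and dEXO, Col4a2 445, 543 and 463, and Col4a4 618 [602, 634], 829 [812, 846] and 810 [788, 832]. Col4a3, which assembles with Col4a4 and Col4a5 in specialised basement membranes, stood at 182, 211 and 220 CPM, and Col4a5 at 141, 165 and 161. Col4a6, which enters another type IV network, stood at 31.7, 36.3 and 38.4 CPM. T or NK cells had 6.63 CPM of Col4a4 and 10.3 CPM of Col4a1 over the libraries together.

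Col4a3 and Col4a4 divided the stromal-like clusters more sharply than Col4a1 did. Summed over libraries, Col4a4 measured 1002 CPM in c1 and 1223 in c3, against 317 in c2 and 548 in c7. Col4a3 measured 300.5, 73.0, 343 and 111 CPM in c1, c2, c3 and c7, the same order of clusters. The order c3, c1, c7, c2 of Col4a4 was found in every library, with c1 at 1023, 990 and 998 CPM, c2 at 332, 295 and 301, c3 at 1057, 1244 and 1372, and c7 at 590, 545 and 506; in PBS the intervals of c1 [980, 1068] and c3 [1005, 1110] overlapped. By contrast Col4a1 ranged from 479 CPM in c2 to 953 in c3. Col4a5 had another order, with 218 CPM in c7, 199 in c3, 157 in c2 and 100.1 in c1.

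Myoid-like cells had the highest type IV levels of any class over the libraries together. Col4a4 reached 3657 CPM [3204, 4156] in PBS, 3932 [3292, 4659] in EXO and 3317 [2657, 4092] in dEXO, and every one of the 34 cells held a UMI of it. Col4a3 stood at 903, 1389 and 1068 CPM. The ratio of Col4a4 to Col4a1 UMIs was 3.23 [2.67, 3.93] in myoid-like cells over the libraries together, against 1.12 [1.09, 1.14] in stromal-like and 0.116 [0.110, 0.122] in Leydig-like cells. Col4a5 and Col4a6 were 442 and 121 CPM in these cells. Type VI Col6a4 was also high there, with 280, 355 and 381 CPM against 48.9, 68.6 and 61.4 CPM in stromal-like cells. Col8a1 and Col8a2, the network-forming chains of type VIII, stood at 56.3 and 40.2 CPM, from 7 and 5 UMIs, against 0.438 and 2.26 CPM in stromal-like cells. Fibrillar Col1a2 was 2132 CPM, below the stromal-like level, and Col15a1 was 8.04 CPM, from a single UMI.

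Vessel cells were few, and their collagens came from cells with and without mural markers. Endothelial-like Col4a1 was 713 CPM [607, 832] and Col4a2 669 CPM over the 3 libraries. In the 12 cells with at least 3 of 9 mural markers Col4a1 was 1004 CPM, and in the 26 with fewer it was 419 CPM. Col15a1, a multiplexin of vessel and muscle basement membranes, measured 326 and 80.2 CPM in the same sets. Col18a1, the source of the fragment endostatin, was 203 and 205 CPM, and Col13a1, a membrane-spanning collagen, 44.0 and 116 CPM. Their median depths were 8594 and 2907 UMIs. The part of depth in these levels was not tested. Another 5 cells outside this class held at least 5 mural markers and under 3 endothelial ones, with Col4a1 at 582 CPM and Col18a1 at 17.6 CPM from 1 UMI. These sets hold too few cells to be compared between libraries.

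Type VI chains were led by Col6a1. Stromal-like Col6a1 measured 656, 856 and 782 CPM, Col6a2 211, 274 and 247, and Col6a3, the long chain that completes the classical trimer, 137, 170 and 163. The other chains, which can take the place of Col6a3, were lower: Col6a4 stood near 60 CPM, Col6a5 at 18.2, 19.98 and 23.5 CPM and Col6a6 at 16.4, 14.7 and 17.3 CPM. Col6a5 was almost confined to c2 among the deep stromal-like clusters, with 64.6 CPM over the libraries together against 1.05 in c1, 1.18 in c3 and 5.53 in c7. Its 508 UMIs in c2 came from 99 of 2066 cells, so few cells carried many UMIs each. Col6a6 was found in both clusters marked by Dlk1, with 32.1 CPM in c2 and 33.4 in c7, against 5.09 in c1 and 0.673 in c3.

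Other collagens of stroma showed more selective patterns. Col15a1 was 393 [381, 406], 411 [399, 423] and 361 [347, 376] CPM in stromal-like cells, and measured 736 CPM in c7 and 514 in c2 against 263 in c1 and 242 in c3. Its clusters kept the order c7, c2, c1, c3 in every library, although the c1 and c3 intervals overlapped in each. The FACIT chain Col14a1, which binds fibrils, was 40.4 CPM in c3 against 4.64 in c1, 5.22 in c2 and 0.527 in c7. By class over the libraries together, Col14a1 was highest in macrophage-like cells, with 18.1 CPM from 412 cells, a level whose counting interval held the stromal-like one. In the Leydig-like cluster c4 it stood above the stromal-like level in each library, as given below. Col16a1, another FACIT, measured 42.6, 57.2 and 50.1 CPM over stromal-like cells. Among membrane-spanning collagens, Col13a1 was 51.5, 55.8 and 40.0 CPM, Col23a1 18.1, 19.6 and 20.7, and Col17a1 13.9, 15.7 and 16.2. Of c1, c2, c3 and c7, c3 was the highest for Col14a1, Col13a1 and Col17a1, with Col13a1 at 76.7 CPM and Col17a1 at 26.2 CPM there. Col25a1, a collagen found with amyloid plaques in brain, was 13.1 CPM in c3 and between 3.05 and 7.37 in c1, c2 and c7.

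Some collagens had their main source outside stroma. Col22a1, a FACIT of tissue junctions, measured 124, 113 and 95.02 CPM in germ cells and was highest in the spermatid-marked clusters c11 and c14, with 670 and 154 CPM. Its stromal-like levels of 1.54, 9.71 and 18.8 CPM lay near those of T or NK cells, which were 2.58, 7.30 and 18.8 CPM. Col16a1 was highest by class in myoid-like cells, at 80.4 CPM, but reached 197 CPM in c11 and 151 in c15, a cluster with spermatocyte markers. Germ cells as a class did not exceed 57.2 CPM of Col16a1, the stromal-like level in EXO, in any library. The cartilage chain Col2a1 reached 24.4 CPM in c18, the other cluster with spermatocyte markers, and was 0.656 CPM in stromal-like cells.

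Sertoli-like cells carried a narrow set of collagens. Col18a1 measured 262 CPM [233, 294] in PBS, 305 [280, 331] in EXO and 273 [257, 290] in dEXO, against 1.29, 3.32 and 1.98 CPM in T or NK cells. The EXO and PBS intervals overlapped. With cells weighing equally the levels were 126, 220 and 153 CPM, and with cells thinned to 1000 UMIs 113, 270 and 199 CPM, so that PBS was the lowest under each. Stromal-like Col18a1 was 29.8, 35.7 and 37.4 CPM, and the endothelial-like level of 204 CPM was the nearest to that of Sertoli-like cells. Col27a1, a fibrillar chain of cartilage, was 22.6 CPM in PBS, 4.99 in EXO and 22.8 in dEXO, from 25, 9 and 89 UMIs in 5, 6 and 31 cells. No UMI of Col27a1 was found in T or NK cells, which allows up to 3 UMIs per library.

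Chains of stroma were higher in Sertoli-like cells of the libraries whose Sertoli-like cells held more stromal markers. Col1a2 was 2.71, 41.0 and 27.1 CPM in PBS, EXO and dEXO, Col3a1 1.81, 28.8 and 18.7, and Col4a4 7.22, 37.1 and 21.0. The summed level of the 15 stromal markers in these cells was 97.5, 340 and 308 CPM, with 8, 1 and 1 of the markers at 0, while T or NK cells had 332, 377 and 225 CPM. The part of this stromal RNA in the Sertoli-like levels was not tested. Col1a2, Col3a1 and Col4a4 were the 3 members called higher in EXO against PBS, of 5 that reached 50 UMIs (6.60% of all genes were higher), and in dEXO against PBS, of 7 (17.0%). Their 74, 52 and 67 UMIs in EXO, and 106, 73 and 82 in dEXO, passed the limit of 50 without PBS. The limit thus let them in through the library where they were high, and these counts are no result about the members. Both comparisons share the PBS library, and PBS had 3 and 2 UMIs of Col1a2 and Col3a1: the log2 ratios of Col1a2 were 3.92 [2.32, 6.23] and 3.32 [1.74, 5.62]. In dEXO against EXO 1 member was higher and 4 lower of 10 (12.7% and 3.16% of all genes). Higher was Col27a1, by 2.19 on the log2 scale [1.20, 3.37], which also reached the limit through dEXO alone. Lower were Col4a4 (-0.82), Col6a1 (-0.79), Col3a1 (-0.63) and Col1a2 (-0.60). With every cell thinned to 1000 UMIs the Col27a1 value was -0.12.

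Leydig-like cells held collagens at a far lower share than stromal-like cells, and much of it lay in 1 cluster. Cluster c4, led by Ly6d and Mrap, had collagen shares of 0.222%, 0.321% and 0.379% in PBS, EXO and dEXO, against 0.0299% to 0.0448% in c0, c5 and c12 over the libraries. The 15 stromal markers summed to 2733, 3058 and 3816 CPM in c4 and to 678, 580 and 613 CPM in c0, against 35090, 32022 and 30430 CPM in stromal-like cells, with none of the 15 at 0 in c4. Insl3, a product of Leydig cells, was 18225 CPM in c4 and 33672 CPM in c0. Over the class, Col3a1 measured 181, 226 and 148 CPM, Col1a2 181, 207 and 142, Col4a1 113, 109 and 70.6, and Col6a1 101, 103 and 66.0. Without c4, Col1a2 was 61.2, 60.9 and 71.6 CPM, still above its T or NK level in each library.

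The proportions of chains in Leydig-like cells were not those of stroma. Type I collagen is mostly a trimer of a pair of Col1a1 chains with a single Col1a2 chain. The ratio of Col1a1 to Col1a2 UMIs was 0.382 [0.373, 0.391], 0.365 [0.357, 0.372] and 0.338 [0.328, 0.347] in stromal-like cells of PBS, EXO and dEXO. It was 0.0758 [0.0707, 0.0813], 0.0614 [0.0561, 0.0671] and 0.0524 [0.0454, 0.0601] in Leydig-like cells. In T or NK cells it was 0.340, 0.458 and 0.333, close to the stromal-like ratio. Of Col1a1 itself, Leydig-like cells held 872, 517 and 213 UMIs of 63393112, 40754541 and 28618888. T or NK cells held 18, 22 and 5 of 1552404, 1507540 and 1009692, about the same level. The Col1a1 level of c4 was above that of T or NK cells and that of c0 below it. The part of free RNA in the Leydig-like Col1a1 counts was not tested. In c4 the ratio was 0.0920, 0.0648 and 0.0556, and in c0 it was 0.0399 in EXO and 0.0452 in dEXO, with 1 UMI of Col1a1 in PBS. The low ratio was thus present in c4 and outside it.

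Type VI chains also stood in other proportions in the 2 classes, and type IV chains less so. The ratio of Col6a1 to Col6a2 was 3.12, 3.12 and 3.17 in stromal-like cells and 14.0 [12.7, 15.4], 10.9 [9.79, 12.1] and 13.9 [11.7, 16.7] in Leydig-like cells. Col6a3, needed for the classical type VI trimer, came to 0.209, 0.199 and 0.208 of the Col6a1 UMIs in stromal-like cells and to 0.00640, 0.0119 and 0.0132 in Leydig-like cells. The Leydig-like Col6a3 levels lay below the 1.47 CPM of T or NK cells over the libraries together, so its presence there was not shown beyond free RNA. Col3a1 about equalled Col1a2 in Leydig-like cells, with ratios of 0.996, 1.09 and 1.04, where stromal-like cells had 0.492, 0.569 and 0.508. Col4a1 to Col4a2 ratios were closer, at 1.43, 1.32 and 1.40 in stromal-like and 1.64, 1.62 and 1.62 in Leydig-like cells. A ratio of UMIs compares 3′ counts of a gene pair and is not a ratio of proteins.

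**Figure D3:**
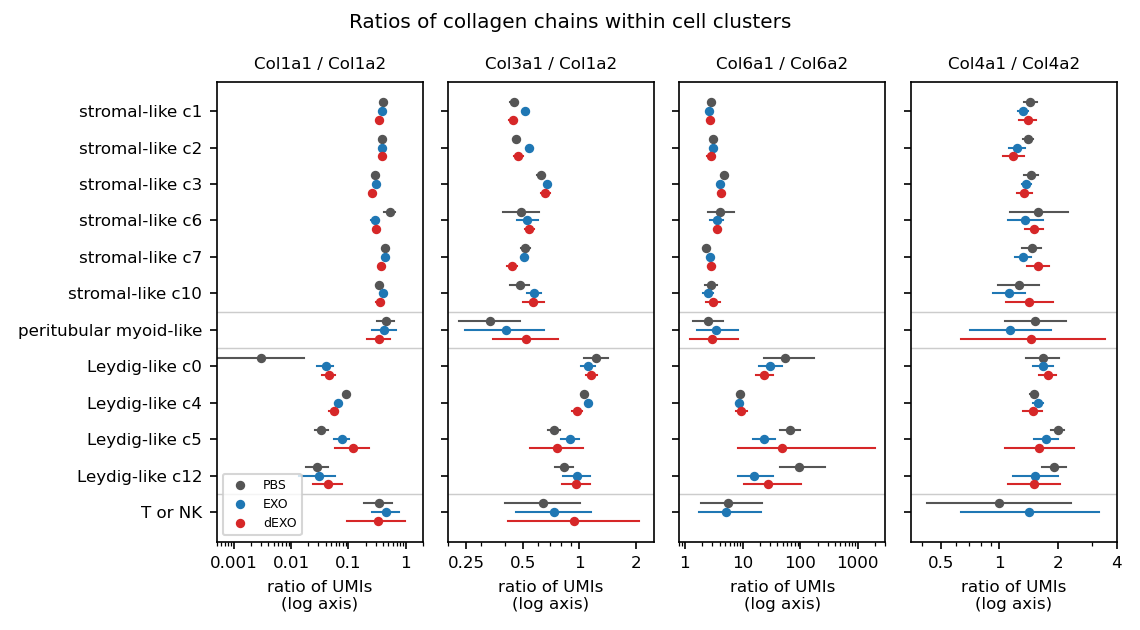
Ratio of UMIs of chain pairs (log axes) in each stromal-like and Leydig-like cluster, myoid-like cells and T or NK cells, with points for libraries and bars for exact 95% intervals. Col1a1 to Col1a2 lies between 0.2585 and 0.525 (c6 in PBS, 135 UMIs of Col1a1) in the stromal-like clusters. In the Leydig-like clusters it lies between 0.00300 (c0 in PBS, 1 UMI of Col1a1) and 0.121 (c5 in dEXO, 11 UMIs). Col6a1 to Col6a2 lies near 3 in stroma and at 9 or more in most Leydig-like points.

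Between libraries, few collagens were past 1.5-fold in stromal-like cells. In EXO against PBS 29 members reached 50 UMIs, 2 of them higher past 1.5-fold and none lower, where 20.3% of all genes tested were higher and 1.32% lower. In dEXO against PBS 2 of 28 were higher and none lower (22.0% and 1.73% of all genes). Both comparisons share the PBS library, and the higher genes were Col14a1 and Col22a1 in each. Col22a1 reached 50 UMIs in both only through the library where it was high, so these calls are no result about Col22a1. In dEXO against EXO 1 of 29, Col22a1, was higher and 1, Col25a1, lower (13.2% and 1.84%). The median log2 ratio of the members was 0.24 in EXO against PBS, where that of all genes was 0.27, 0.21 against 0.24 in dEXO against PBS, and -0.09 against 0.00 in dEXO against EXO. The median gene was thus shifted by 0.27 and 0.24 in the comparisons with PBS. Relative to that shift, Col22a1 alone was past the fold in EXO against PBS, and in dEXO against PBS Col22a1 was higher and Col13a1 lower (-0.60), whereas Col14a1 stayed within the fold in both (0.54 and 0.58).

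Col14a1 measured 8.83 CPM in PBS, 15.5 in EXO and 15.5 in dEXO over stromal-like cells, a log2 ratio of 0.81 [0.43, 1.20] for EXO and 0.81 [0.39, 1.24] for dEXO. Within c3, where most of it lay, the levels were 40.5 [30.9, 52.2], 37.7 [31.3, 44.9] and 47.8 [36.1, 62.1] CPM, and their intervals overlapped. Cluster c3 was 247 of 2051, 1172 of 4419 and 399 of 3214 stromal-like cells. Outside c3 the stromal-like level was 3.15 [2.06, 4.61], 5.91 [4.31, 7.90] and 8.75 [6.47, 11.57] CPM, from 26, 45 and 49 UMIs. At coarser and finer clustering the log2 ratio over the class was 0.27 and 0.16 in EXO against PBS and -0.07 and -0.08 in dEXO against PBS, so that the call was lost. Col22a1 measured 1.54, 9.71 and 18.8 CPM, log2 ratios of 2.66 [1.87, 3.54] and 3.61 [2.83, 4.49], while its T or NK levels were 2.58, 7.30 and 18.8 CPM and the germ cells numbered 263, 1142 and 2006. The part of germ cell RNA in these levels was not tested. Col25a1 measured 6.06, 7.97 and 5.02 CPM, and its log2 ratio of dEXO against EXO was -0.67 [-1.28, -0.08].

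**Figure D4:**
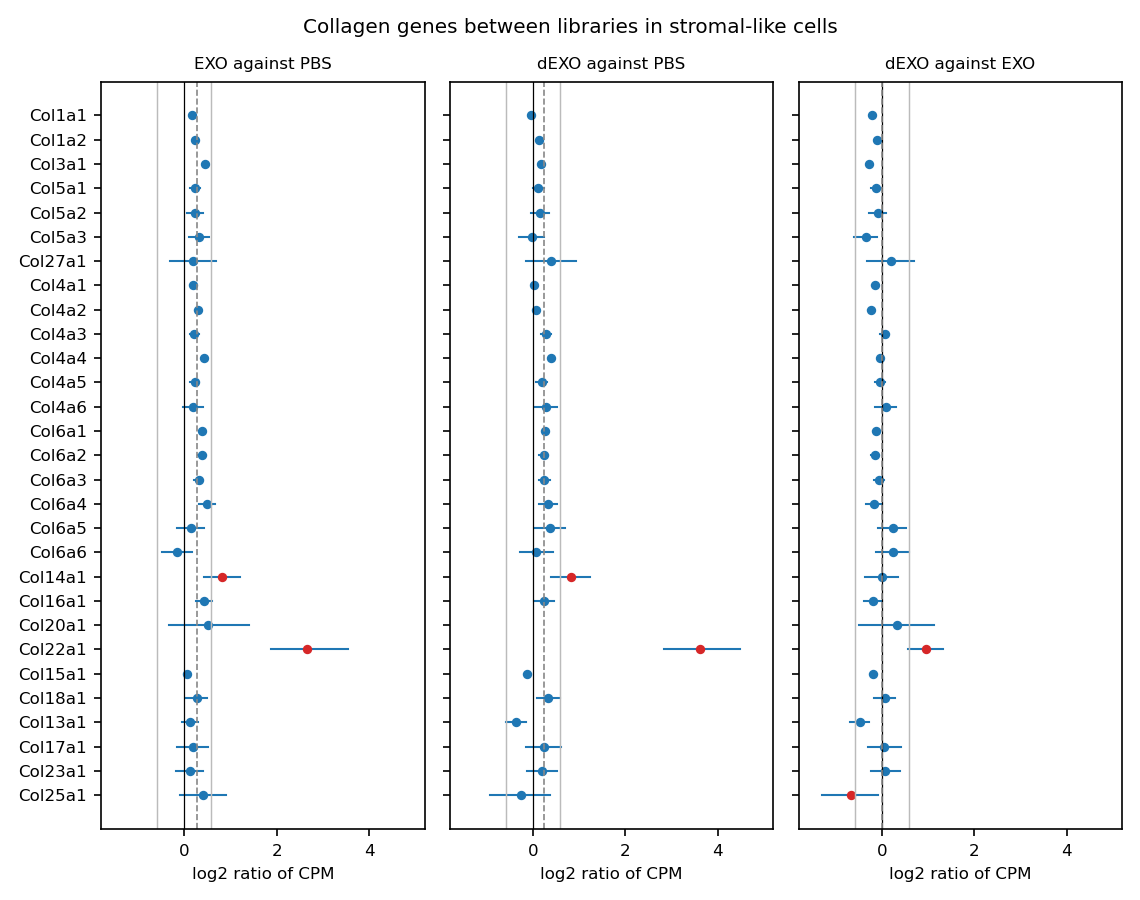
Log2 ratio of CPM (horizontal axis) of the 29 collagen genes tested in stromal-like cells for each pair of libraries, with exact 95% intervals from counting. Col22a1 and Col14a1 stand to the right in both comparisons with PBS, and the other genes lie between -0.36 (Col13a1) and 0.51 (Col20a1) there.

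Inside the stromal-like clusters, c2 held the clearest difference. Col6a5 was 37.1 CPM [31.7, 43.1] in PBS, 95.9 [82.9, 110.4] in EXO and 110.5 [93.3, 129.9] in dEXO, log2 ratios of 1.37 [1.07, 1.68] and 1.57 [1.245, 1.90] against PBS. The cells with a UMI of Col6a5 were 28 of 808 (3.46%), 38 of 725 (5.24%) and 33 of 533 (6.19%), shares whose exact intervals of 2.32% to 4.97%, 3.74% to 7.12% and 4.30% to 8.58% overlapped. The higher level thus came with few cells, and the count interval does not cover the spread between cells. In EXO against PBS 3 of 25 members were higher in c2 (7.22% of all genes), with Col6a6 at 0.73 and Col18a1 at 0.66 on the log2 scale beside Col6a5. In dEXO against PBS 3 of 25 were higher and 1 lower (10.8% and 3.67%), with Col6a6 at 0.77, Col4a6 at 0.61 and Col13a1 at -1.03 [-1.66, -0.45]. Col13a1 was 43.3, 43.8 and 21.2 CPM, and it was the only member past the fold in dEXO against EXO in c2 (-1.05 [-1.72, -0.42]; 3.48% of all genes were lower).

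In the comparisons with PBS, the other deep clusters showed few or no such members. In c1 none of 22 members in EXO against PBS (10.7% of all genes) and none of 21 in dEXO against PBS (12.2%) were past the fold. In c7 none of 22 were in either comparison (10.4% and 12.8%), and in c3 the same gene, Col23a1, was past it in both, higher at 0.59 [-0.06, 1.28] and 0.68 [-0.10, 1.48] (11.3% and 10.2% of all genes were higher). Those Col23a1 intervals include 0. In the shallow c10, 7 of 13 members were higher in EXO against PBS (20.2% of all genes), among them Col3a1 with 945 CPM in PBS and 1541 in EXO. In the shallow c6, 6 of 17 were higher and 1, Col15a1, lower in dEXO against PBS (38.0% and 4.45%). In EXO against PBS none of 11 was higher there and 2 were lower, Col15a1 and Col1a1 (23.1% and 4.44%), with a median log2 ratio of -0.25 over these members. PBS had 101 cells in c6, and the 9 mural markers summed to 736 CPM there, against 163 in EXO and 170 in dEXO. Over the libraries c6 held 4 cells with at least 5 mural markers. The part of mural cells in the c6 differences was not tested.

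In Leydig-like cells 2 collagens of low level moved in opposite directions. Col11a1, a fibrillar chain best known from cartilage, was 13.0 CPM [12.1, 13.9] in PBS, 22.3 [20.8, 23.8] in EXO and 35.2 [33.0, 37.4] in dEXO, and no interval overlapped another. Its log2 ratio was 0.78 [0.64, 0.91] in EXO and 1.43 [1.30, 1.57] in dEXO against PBS, and 0.66 [0.53, 0.79] in dEXO against EXO. The same order was found in each Leydig-like cluster: 15.3, 26.7 and 36.3 CPM in c0, 9.15, 10.5 and 22.7 in c4, 14.1, 21.3 and 26.4 in c5, and 14.2, 30.5 and 40.2 in c12. Intervals overlapped between PBS and EXO in c4, and between EXO and dEXO in c5 and c12. Stromal-like cells had 0.513, 0.733 and 2.51 CPM and T or NK cells 0.644, 0.663 and 1.98 CPM.

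Col26a1, a short secreted collagen described in testis and ovary, had the reverse order. Leydig-like cells had 4.54 CPM [4.03, 5.10] in PBS, 1.45 [1.10, 1.87] in EXO and 0.908 [0.594, 1.33] in dEXO, log2 ratios of -1.65 [-2.08, -1.24] and -2.32 [-2.96, -1.74] against PBS. A UMI of Col26a1 was found in 242 of 2021 cells in PBS, 58 of 2394 in EXO and 24 of 1973 in dEXO, at median depths of 30135, 16681 and 13501 UMIs. PBS was the highest library in each cluster, with 6.47 CPM in c0, 3.01 in c4, 4.66 in c5 and 5.46 in c12. In EXO the same clusters had 1.09, 1.69, 1.88 and 1.07 CPM, and in dEXO 0.848, 0.505, 1.29 and 1.49. Stromal-like cells held 7 UMIs of Col26a1 in all.

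**Figure D5:**
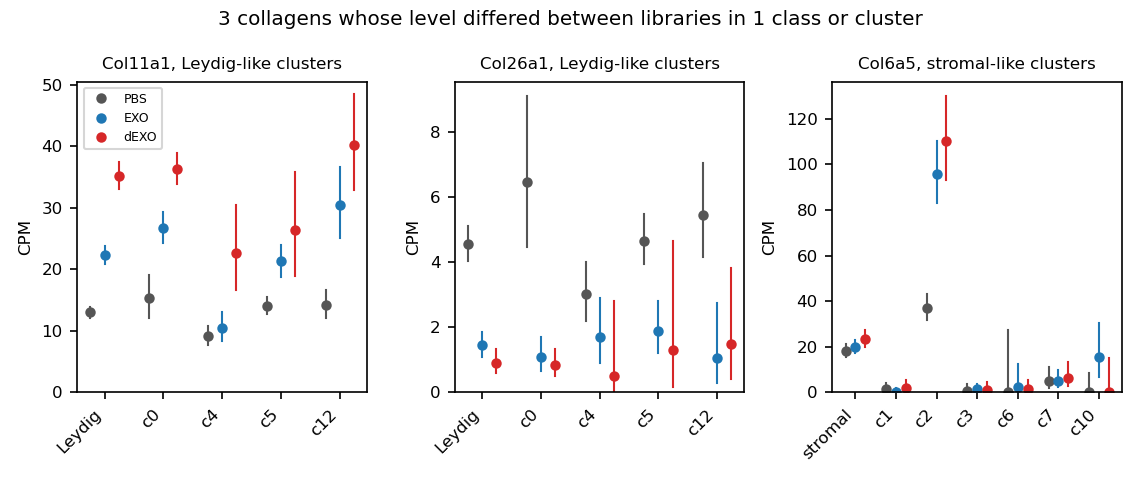
CPM of Col11a1 and Col26a1 in Leydig-like cells and their clusters, and of Col6a5 in stromal-like cells and their clusters, by library, with exact 95% count intervals. Col11a1 has its lowest point in PBS in every Leydig-like cluster and Col26a1 its highest, and Col6a5 in c2 stands at 37.1 CPM in PBS and above 95 CPM in the other libraries.

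Counts of members past the fold in the Leydig-like class differed with and without c4. In EXO against PBS 6 of 29 members were higher and 1, Col26a1, lower, where 11.8% and 4.63% of all genes were. In dEXO against PBS 4 of 28 were higher and 10 lower (16.9% and 6.16% of all genes), and in dEXO against EXO 1 of 28 was higher and 13 lower (12.7% and 3.56%). Beside Col11a1, those with the clearest intervals above 0 against PBS were Col7a1, the anchoring fibril collagen (1.23 CPM in PBS, 2.23 in EXO and 2.31 in dEXO), Col4a3 and Col6a3 in EXO, and Col20a1 and Col6a4 in dEXO. Lower in dEXO against PBS, beside Col26a1, were Col5a1 at -1.13 [-1.47, -0.81], Col1a1 at -0.89 [-1.11, -0.67] and Col4a1 at -0.68 [-0.75, -0.61] on the log2 scale. T or NK cells had 1.47 CPM each of Col4a3 and Col6a3, 3.44 of Col5a1 and 11.1 of Col1a1 over the libraries together. Those levels are of the same order as in Leydig-like cells. T or NK Col1a1 was also lower in dEXO, with 5 UMIs of 1009692 against 18 of 1552404 in PBS. Over the libraries together T or NK cells also had 0.983 CPM of Col7a1, 0.737 of Col20a1 and 2.46 of Col6a4. Col20a1 was highest by class in germ cells, at 3.92 CPM, and germ cells numbered 263, 1142 and 2006 in PBS, EXO and dEXO. The part of free RNA, that of germ cells included, in these differences was not tested. Col4a4 (-0.99), Col6a2 (-0.995), Col6a1 (-0.64) and Col3a1 (-0.61) were the clearest among the lower ones in dEXO against EXO. Cluster c4 was 680 of 2021 Leydig-like cells in PBS, 680 of 2394 in EXO and 248 of 1973 in dEXO. Within c4, Col4a1 had 4518 UMIs of 15294408 in PBS and 778 of 1979577 in dEXO, a higher level in dEXO. Col1a1 (787 and 120 UMIs) was higher in dEXO there too, and Col5a1 (353 and 41) slightly lower. Without c4, none of Col5a1, Col1a1 and Col4a1 was lower past the fold in dEXO against PBS. Without c4, 10 of 23 members were higher and 1 lower in EXO against PBS (15.2% of all genes in either direction), 9 of 22 higher and 1 lower in dEXO against PBS (23.0%), and none of 23 was past the fold in dEXO against EXO (15.9%).

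Within c4 the collagens of stroma and the stromal markers had the same order of libraries. Col1a2 measured 559, 832 and 1091 CPM in PBS, EXO and dEXO, Col3a1 592, 930 and 1065, and Col6a1 247, 370 and 458. Col14a1 had this order too, at 21.8, 32.6 and 51.0 CPM, but stood above its stromal-like level in each library. In EXO against PBS 8 of 27 members were higher and 1 lower (10.5% and 2.74% of all genes), and in dEXO against PBS 12 of 23 were higher (16.2% of all genes); the 2 comparisons share PBS. The stromal marker sum had the same order (2733, 3058 and 3816 CPM), and the median depth was 21032, 10586 and 7343.5 UMIs. Their part in the result was not tested.

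Genes that make, cross-link, bind or break down collagen were taken from 7 lists with 71 genes. In stromal-like cells 4 of the 60 tested were higher and 1 lower in EXO against PBS, none of 60 was past the fold in dEXO against PBS, and 1 of 61 was lower in dEXO against EXO. Of all genes 20.3% were higher and 1.32% lower in EXO against PBS, 22.0% and 1.73% in dEXO against PBS and 13.2% and 1.84% in dEXO against EXO, so higher calls were fewer than among all genes and lower calls about as frequent in the pairs with EXO. Relative to the median gene 2 were higher and 4 lower in EXO against PBS, and 3 were lower in dEXO against PBS. Their median log2 ratios were 0.23, 0.08 and -0.13, against 0.27, 0.24 and 0.00 over all genes. Lox, the enzyme that starts the cross-links between fibrils, measured 5.85 CPM in PBS, 11.4 in EXO and 6.79 in dEXO, a log2 ratio of 0.96 [0.49, 1.44] in EXO against PBS and of -0.74 [-1.26, -0.24] in dEXO against EXO. Its relative Loxl1 was 107 CPM in PBS, 136 in EXO and 126 in dEXO and did not pass the fold.

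Of 10 genes for export and propeptide removal, 8 were tested and 1 was higher in EXO: Adamts14, a protease that trims the amino end of fibrillar procollagens, stood at 11.8, 21.7 and 16.8 CPM. The collagen receptor chain Itga11 was also higher in EXO (0.75 [0.05, 1.48]), 1 of 5 receptors tested, as was the laminin chain Lama1 (0.60 [0.41, 0.80]), 1 of 9 basement membrane partners. Mrc2, an uptake receptor for collagen fragments, was lower (-0.62 [-1.18, -0.06]), 1 of 10 genes for breakdown and uptake. Of all genes 20.3% were higher and 1.32% lower in the same comparison, so the share of higher calls in these 3 lists was at or below that of all genes, and a single lower call is no result about its list. None of 15 genes for hydroxylation and folding and none of 9 fibril binders was past the fold in any pair. The collagen chaperone Serpinh1 stood at 464, 496 and 448 CPM. The fibril binder Dcn (decorin) had 13112 CPM in PBS, 9782 in EXO and 10371 in dEXO.

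Genes whose pattern was most like that of a collagen were sought over 18 sums of class and library, 6 classes in each of 3 libraries. These points share libraries and depth, so the correlations describe the sums. For Col1a2 the nearest genes by Pearson correlation of log2(CPM + 1) were Lamc3 (0.99), Igfbp6 (0.99), Htra3 (0.99), Nrk (0.98) and Bgn (0.98). Col6a1 shared Htra3, Igfbp6 and Bgn with it and was nearest to Ogn (0.99), a small fibril-binding proteoglycan. Col4a1 was nearest to Cdh5 (0.98), the cadherin of endothelial junctions, which was 171 CPM in stromal-like cells and 948 CPM in endothelial-like cells; the latter, with under 50 cells per library, were not among the points. Col15a1 was nearest to Mustn1 (0.98), Col13a1 to Gm37899 (0.98), Col22a1 to Kif27 (0.96), Col8a1 to Ssxb6 (0.96) and Col7a1 to Acvr2a (0.85).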

How the data were processed

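The deposited values are whole-number UMI counts for each gene in each barcode of 3 testis libraries, not normalized. Per the file headers they come from Cell Ranger 5.0.1. Seurat and GRCm38 appear in the submitters' processing notes without a stated role. The members and gene lists were chosen with earlier results of these data known.

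Kept were barcodes of 500 UMIs or more, 300 genes or more and no more than 20% mitochondrial UMIs. Scrublet's automatic threshold marked 4, 2 and 0 cells, so the highest scores at 0.8% per 1000 cells (222, 778 and 665 cells) were removed. Log-transformed counts scaled to 10000, 2000 variable genes without collagens, 30 components and 15 neighbours gave 25 Leiden clusters at resolution 1 (scanpy 1.11.5, leidenalg 0.10.2). Classes were named from marker lists, with at least 3 markers raised 2-fold, and 3 clusters (2.40% to 3.96% of cells) stayed unnamed, so names are rebuilt ones.

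Counts were summed per class and library and scaled to CPM, with exact Poisson, Clopper-Pearson and conditional binomial 95% intervals (scipy 1.17.1). Scripts were tested on simulated data. Full values are given for members reaching 20 CPM in a class of at least 50 cells, and for up to 4 members a direction, class and pair of libraries, by the interval bound nearest 0. Other members were named after their values were seen.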

Additional observations from a re-analysis of the deposited data

Results flagged for a closer look

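In 3 cases a collagen was past 1.5-fold in opposite directions in 2 classes under the same pair of libraries. Each counting interval lay wholly on the side of its ratio. None of these differences was tested, since each class has 1 library per group.

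In dEXO against PBS the log2 ratio of Col18a1 was -0.722 in Leydig-like cells, from 72 and 263 UMIs, and 2.13 in germ cells, from 60 and 3 UMIs. Under the same pair Col1a2 had a log2 ratio of 3.32 in Sertoli-like cells, from 106 and 3 UMIs, and of -1.20 in T or NK cells, from 15 and 53 UMIs. In dEXO against EXO the log2 ratio of Col25a1 was -0.667 in stromal-like cells, from 34 and 87 UMIs, and 0.759 in germ cells, from 71 and 24 UMIs. At least 1 side of each case rests on 34 UMIs or fewer in a library.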

How the results depend on the processing

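No paired analysis was possible because each group has 1 library. The libraries' median depths differed, and counting intervals do not cover spread between animals. Alternatives that left out c6 and c10, left out c4 or weighed the 6 stromal-like clusters equally were chosen after seeing the data.

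Shares of collagen UMIs are given in percent as PBS, EXO and dEXO. In stromal-like cells they were 0.882, 1.07 and 0.972. They became 0.891 in PBS at Leiden resolution 0.5; 0.891, 1.08 and 0.987 at 1.5; 0.868, 1.06 and 0.960 with the T or NK level subtracted; 1.09 in EXO and 0.986 in dEXO at 10% mitochondrial UMIs; 0.858, 1.08 and 0.991 thinned to 1000 UMIs; 0.841, 1.04 and 0.920 with cells weighing equally; 0.980 in dEXO with collagens clustered; and 0.898, 1.11 and 1.01 without c6 and c10. EXO was the highest and PBS the lowest wherever all were computed. In Leydig-like cells they were 0.0782, 0.0880 and 0.0606. They became 0.0704, 0.0734 and 0.0564 at resolution 0.5, 0.0732, 0.0808 and 0.0597 at 1.5, 0.0325, 0.0337 and 0.0369 without c4, 0.0643, 0.0719 and 0.0482 with T or NK subtracted, and 0.0811, 0.0940 and 0.0643 at 10% mitochondrial UMIs. Thinned cells gave 0.108, 0.132 and 0.0872, equal weights 0.118, 0.149 and 0.0898, collagens clustered 0.0793, 0.0906 and 0.0626, automatic doublet calls 0.0800, 0.0930 and 0.0652, and no doublet removal 0.0828, 0.0954 and 0.0666. Only without c4 was dEXO the highest.

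Counts past the fold are given as EXO against PBS, dEXO against PBS and dEXO against EXO. Stromal-like members (2, 2 and 2) became 1, 1 and 0 at 2-fold, 1, 0 and 1 at 200 UMIs, and 5 and 4 in the last pairs at 20 UMIs. The first pairs gave 1 and 1 at resolutions 0.5 and 1.5, the middle pair 1 with T or NK subtracted and 7 with clusters weighing equally, and the first pair 1 relative to the median gene. With cells weighing equally the first and last pairs gave 4 and 1; the last gave 1 when thinned, with automatic or no doublet removal, or without c6 and c10. Leydig-like members (7, 14 and 14) became 2, 3 and 0 at 2-fold, 11 and 0 in the first and last pairs without c4, and 3 in the first at 200 UMIs. Sertoli-like members (3, 3 and 5) became 6, 7 and 10 at 20 UMIs, 0 in each pair at 200 UMIs and 1 in the last at 2-fold. The share of all genes past the fold moved too: for stromal-like cells it was 9.48%, 13.3% and 7.89% at 2-fold, 11.6%, 14.1% and 7.49% at 200 UMIs, and over all alternatives it ranged from 9.48% to 41.0%, 13.3% to 37.5% and 7.49% to 55.6%, the highest with T or NK subtracted. In Leydig-like cells it ranged from 8.43% to 22.7%, 13.4% to 29.1% and 8.24% to 21.4%, and in Sertoli-like cells from 2.21% to 17.5%, 10.2% to 29.3% and 6.90% to 22.9%. Stromal-like pathway genes (5, 0 and 1) became 0 in the first and last at 2-fold, 8, 2 and 2 at 20 UMIs, 2 and 0 in the first and last at 200 UMIs, and 3 in the middle pair relative to the median gene.

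Sertoli-like shares in PBS, 0.0378, became 0.0177 when thinned, 0.0214 with cells weighing equally and 0.0239 with T or NK subtracted. Of 438 levels of named members under an alternative, 173 left the counting interval and 36 moved by over 1.5 times. Of 148 log2 ratios, 138 kept their side of the fold, 11 left the counting interval, 21 moved by over 1.5-fold and 3 reversed. The stromal-like Col14a1 ratio of dEXO to PBS, 0.812, became -0.0747 at resolution 0.5 and -0.0819 at 1.5, and the Sertoli-like Col27a1 ratio of dEXO to EXO, 2.19, became -0.120 when thinned. The cause was not tested.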
